A study of Homo sapiens with 4 samples.

Results

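The genes described here are the guanylate binding proteins GBP1 to GBP5 and 4 further genes that are typical of the response to interferon gamma, namely IDO1, CD274, CIITA and ICAM1. They were chosen by name as typical of that response, when earlier results of these arrays were known. The array annotation was searched through its accessions, since the spot tables used here have no column of gene names, and the RefSeq gene table of GRCh38.p14 gave the symbols. In this way 11 of 34127 probes stood for the 9 genes, out of 19102 genes that were named, with 2 probes each for CD274 and CIITA and 1 probe for each of the other genes. A gene was tested where a probe stood well above background on each array of 1 shRNA or of both. This held for 8 of the 9 genes (CIITA was left out) and for 18894 genes in all. The 18894 include transcripts without a symbol, each counted as a gene, and with named probes alone 14556 genes were tested. The IFIT family, which is typical of type I interferon, served as the comparison, with 4 of its 5 genes tested.

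PC3 cells, a line from a metastasis of human prostate cancer, were infected for 48 h with lentivirus carrying an shRNA against ALKBH3, a demethylase of alkylated nucleic acids, or an shRNA against GFP as control. All cultures were then selected with puromycin, and total RNA was taken after 48 h or 96 h of selection. The study has 4 single-colour Agilent arrays, 1 for each shRNA at each time point, so an shRNA is repeated only by its other time point, and nothing states that the time points came from separate cultures. Both arrays of a time point shared a slide and a scan, so each comparison of the shRNAs was made within a slide, whereas slide and time point cannot be told apart. The model is 1 cell line, every group carries a lentivirus and has been through selection, uninfected cells are not among the arrays, and the labels leave the sequence of the ALKBH3 shRNA unnamed. P-values measure only the spread among these arrays. The RNA is that of a whole culture, in which more responding cells and more RNA per cell cannot be told apart.

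Interferon gamma binds a receptor made of IFNGR1 and IFNGR2, which signals through the kinases JAK1 and JAK2. The signal reaches GAS elements and induces, among others, IRF1, which with other IRF factors acts on ISRE elements of the same or further genes. Type I interferon acts mainly through ISRE elements, which drive the IFIT genes, and many guanylate binding protein genes respond to both types of interferon. Guanylate binding proteins are large GTPases that coat the vacuoles and membranes of intracellular pathogens.

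RefSeq promoter windows of 300 bases, 250 before and 50 after a gene's start in GRCh38.p14, were at hand for 5 of the 9 genes, GBP1, GBP3, GBP4, CD274 and ICAM1. They were searched on both strands for GAAANNGAA, the core of an ISRE, and for TTCNNNGAA, the GAS palindrome, and the matches below are shown for GBP1 and CD274, which had the highest fold changes, for GBP3 and ICAM1, which moved least at 96 h, and for 3 IFIT genes. The matched letters are in capitals, each line reads 5′ to 3′ on the strand of the gene, and an ISRE core on the opposite strand reads TTCNNTTTC. The positions are chr1:89065315-89065344 (minus strand) for GBP1, chr1:89022867-89022891 (minus strand) for GBP3, chr9:5450325-5450354 and chr9:5450407-5450436 (plus strand) for CD274, chr19:10271035-10271064 (plus strand) for ICAM1, and chr10:89392498-89392527, chr10:89332469-89332498 and chr10:89414514-89414543 (plus strand) for IFIT1, IFIT3 and IFIT5.
GBP1, ISRE core: acgaagtactTTCAGTTTCatattactcta
GBP3, GAS: actgagtcacTTCCTTGAAagaagt
CD274, ISRE core: actgacatgtTTCACTTTCtgtttcatttc
CD274, GAS: ttccgccgatTTCACCGAAggtcaggaaag
ICAM1, GAS: ggcgcgaggtTTCCGGGAAagcagcaccgc
IFIT1, ISRE core: tagctttagtTTCACTTTCccctttcggtt
IFIT3, ISRE core: ttccatcagtTTCACTTTCctttccccttt
IFIT5, ISRE core: tctattaagtTTCGGTTTCtgaagcttacg
An ISRE core was found in 4 of the 5 windows, those of GBP1, GBP3, GBP4 and CD274, and in 3 of 4 IFIT genes with a window. GAS matches were found in 3 of the 5 windows, those of GBP3, CD274 and ICAM1, and in 0 of the 4 IFIT genes. Over all 35116 windows of this length 8.11% held the ISRE core and 7.66% the GAS palindrome. A match is a description of the letters only, and in the CD274 window a second ISRE core overlaps the one shown.

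ALKBH3, the target of the shRNA, had intensities of 1287 and 1259 on the control arrays of 48 h and 96 h and of 409 and 452 on the ALKBH3 shRNA arrays. These and all intensities below are those of the spots before the arrays were brought to one scale, whereas log2 differences were taken after each array had been centred on its 75th percentile. ALKBH3 was lower by a log2 value of -1.63 (standard error 0.13, unadjusted p = 9.6e-05 and adjusted p = 0.272 in limma). With the time points as a replicate block its limma adjusted p was 0.0401. A second ALKBH3 probe, also well above background on all 4 arrays, had log2 differences of -2.04 at 48 h and -2.06 at 96 h. The cultures held epithelial genes that PC3 cells express, with log2 fold changes of 0.03 for KRT8, -0.07 for KRT18 and 0.98 for EPCAM, which was thus not level between the shRNAs (limma adjusted p = 0.445, or 0.0401 when the time points were a replicate block). Of 7 leukocyte marker genes 4 were tested, with 0 called by the rule given next and a median log2 fold change of 0.02, from 0.23 for CD3E to -0.09 for PTPRC.

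A gene was called when it changed at least 2-fold with an unadjusted limma p below 0.05. In this comparison 0.932% of all 18894 genes tested were called higher with ALKBH3 shRNA, and 0 genes in either direction passed a limma adjusted p of 0.05 (1474 had an unadjusted p below 0.05), the smallest limma adjusted p being 0.0739. Of the 8 tested interferon gamma targets 1 was called, CD274, and 0 were called lower. The count rests on a single gene, which entered the test through its signal with ALKBH3 shRNA: with a filter on signal well above background on all 4 arrays CD274 was not tested, and 0 of 7 genes were called. With time point as a replicate block, CD274 and GBP1 passed the same cutoffs, against 1.16% of all genes, and CD274 alone passed the limma adjusted p, against 1.26%. The median log2 fold change of the 8 genes was 0.15, beside 0.00 over all genes tested.

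The small median joins opposite values of the time points. At 48 h all 8 genes were higher with ALKBH3 shRNA, with a median log2 difference of 0.76, and at 96 h 3 were higher (CD274, GBP1 and ICAM1) and 5 were lower (GBP2, GBP3, GBP4, GBP5 and IDO1), with a median of -0.14. Over all genes tested the medians were -0.01 and 0.01, and the sign differed between time points in 5968 of 18894 genes. CD274, GBP1 and IDO1 were at least 2-fold higher at 48 h, where 1.71% of all genes were, and CD274 alone at 96 h, where 1.41% of all genes were. These differences at a single time point set 1 array against 1 array and carry no test.

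**Figure D1:**
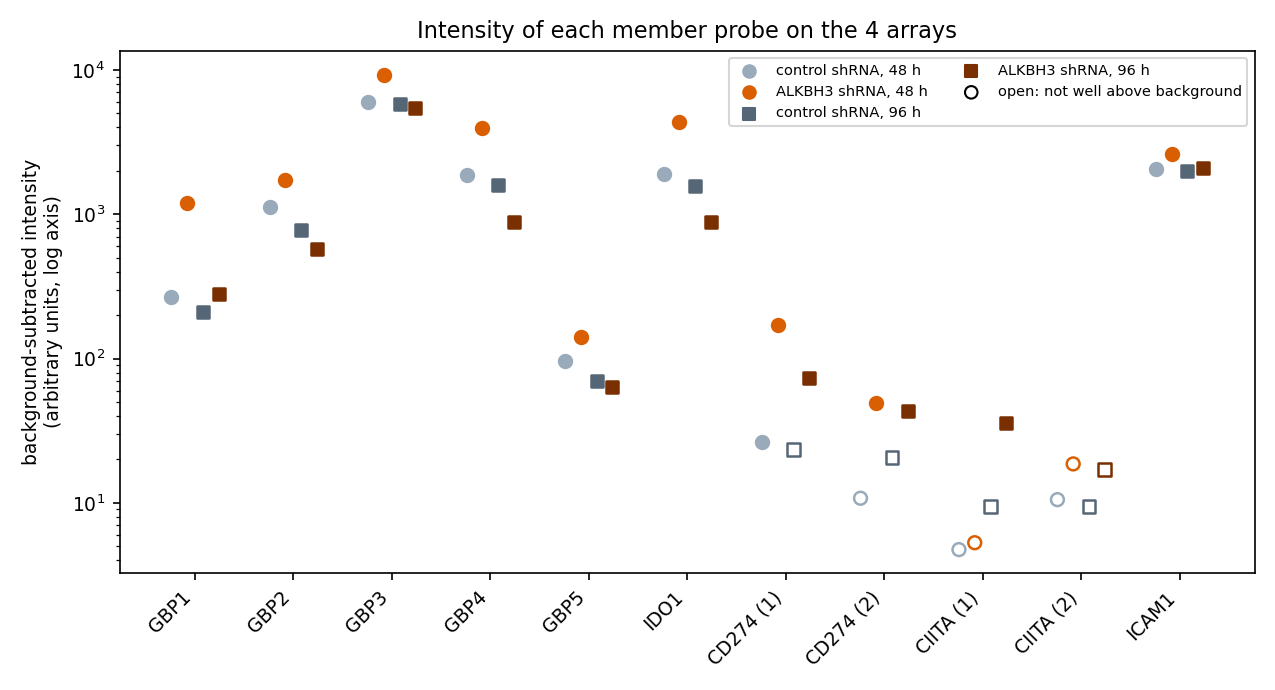
Spot intensity (arbitrary units, log axis) of the 11 probes of the 9 genes on the 4 arrays, by shRNA and hours of selection, with 1 point for each array and no error bars, since each combination was measured once; open symbols were not well above background. CD274 was higher with ALKBH3 shRNA at both time points, from 26.5 to 172 at 48 h, whereas GBP4 and IDO1 were higher at 48 h and lower at 96 h.

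CD274, which encodes the checkpoint ligand PD-L1 and lies on chromosome 9 (5450542 to 5470554 in GRCh38.p14), rose most among the 8 genes. Its brighter probe had intensities of 26.5 (control shRNA) and 172 (ALKBH3 shRNA) at 48 h and of 23.5 and 73.2 at 96 h. Both arrays with ALKBH3 shRNA lay above both control arrays, and the probe was not well above background on the control array of 96 h, so it was measured on 1 of 2 control arrays. The log2 difference was 2.60 at 48 h, a 6.07-fold rise, and 1.61 at 96 h, where the rise was at least 2.79-fold. Over the 4 arrays the log2 fold change was 2.11 (standard error 0.45, unadjusted p = 0.0069 and adjusted p = 0.395 in limma), and the limma adjusted p with the replicate block was 0.0480.

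The second CD274 probe was dimmer, with intensities of 10.8 and 49.5 at 48 h and 20.7 and 43.2 at 96 h, control shRNA first. Neither control array had this probe well above background, and both arrays with ALKBH3 shRNA again lay above both control arrays. The rise was at least 2.02-fold over both time points (limma adjusted p = 0.384). A minimum fold sets the bright arrays against the lowest signal well above background, or against the probe's own signal where that was higher. Both probes thus gave the same direction at both time points. Under normexp background correction the log2 fold change of CD274 was 0.92 and the gene was not called.

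The 5 guanylate binding protein genes considered here lie within 266 kb of chromosome 1 (89006680 to 89272860 in GRCh38.p14), and each had 1 probe. GBP1, whose product coats cytosolic bacteria and recruits other members of the family, had intensities of 268 (control shRNA) and 1198 (ALKBH3 shRNA) at 48 h and of 210 and 279 at 96 h. ALKBH3 shRNA gave the higher signal at each time point, but the groups overlapped once the arrays had been centred, since the 96 h array with ALKBH3 shRNA then lay below the 48 h control. The log2 difference was 2.07 at 48 h, or 4.19-fold, and 0.38 at 96 h. Over the 4 arrays the mean difference of 1.23 on the log2 scale (standard error 0.74, adjusted p = 0.792 in limma) did not pass the test, and its unadjusted limma p of 0.164 became 0.0379 with time point as a replicate block.

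GBP4 had intensities of 1883 (control shRNA) and 3933 (ALKBH3 shRNA) at 48 h and of 1587 and 889 at 96 h. The array with ALKBH3 shRNA was thus the brightest at 48 h and the dimmest at 96 h, and the groups overlapped. The log2 difference was 0.97 at 48 h and -0.86 at 96 h, which placed GBP4 at the percentiles 98.2 and 0.69 of all genes tested. The mean of these, 0.05 (standard error 0.75, limma adjusted p = 0.994), describes neither time point.

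GBP2, which acts with GBP1 at the membranes of pathogens, had intensities of 1123 and 1725 at 48 h and of 778 and 573 at 96 h, control shRNA first. GBP5, which is linked to the assembly of the NLRP3 inflammasome, was dim throughout, with 96.0 and 142 at 48 h and 69.9 and 63.0 at 96 h. Like GBP4, GBP2 and GBP5 had their highest signal with ALKBH3 shRNA at 48 h and their lowest with ALKBH3 shRNA at 96 h. The log2 differences were 0.53 and -0.47 for GBP2 and 0.47 and -0.18 for GBP5, and neither gene passed the test (limma adjusted p = 0.996 and 0.986). GBP3 had intensities of 5998 and 9301 at 48 h and of 5785 and 5478 at 96 h, with log2 differences of 0.54 and -0.11, and it did not pass the test either (limma adjusted p = 0.951). The value of GBP3 at 96 h was within the median absolute log2 difference of all genes between the shRNAs, which was 0.15 at each time point.

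Over the 5 genes the median log2 difference was 0.54 at 48 h and -0.18 at 96 h. The log2 fold changes of the other genes of the family were 0.17 for GBP6 and -0.25 for GBP7, and the related GTPase IRGM was not tested. Since the sequences of guanylate binding proteins are close to each other, a probe of one gene can take up RNA of another, which was not tested.

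IDO1, which opens the breakdown of tryptophan to kynurenine, was printed in 10 spots on each array. It had intensities of 1900 (control shRNA) and 4368 (ALKBH3 shRNA) at 48 h and of 1561 and 885 at 96 h. As with GBP4, the arrays with ALKBH3 shRNA held both the highest and the lowest value. The log2 difference was 1.11 at 48 h, or 2.16-fold, and -0.85 at 96 h, while the SD over the spots of one array was 0.056 to 0.084 in log2 units, an error of the spots that leaves out the spread between cultures. The log2 fold change over the 4 arrays was 0.13 (standard error 0.80, limma adjusted p = 0.991). Without the 96 h array with ALKBH3 shRNA the log2 fold change was 1.32 for IDO1, 1.16 for GBP4 and 2.31 for GBP1. Without the 48 h array with ALKBH3 shRNA it was -1.05 for IDO1, -1.05 for GBP4 and 0.14 for GBP1. Each of these fits rests on a single array with ALKBH3 shRNA, so no call is given for them.

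A signal at least 1.5-fold higher at 48 h and at least 1.5-fold lower at 96 h with ALKBH3 shRNA was found in 6 of 18894 genes, or 0.0318%. Besides IDO1 and GBP4 these were CXCL9, a chemokine that interferon gamma induces (1.09 and -0.76 on the log2 scale), the copper carrier ceruloplasmin, CP (0.63 and -0.63), and 2 transcripts without a symbol. CXCL9 and CP were each well above background on 3 of the 4 arrays. The limit of 1.5-fold was chosen after the values had been seen, and 1 array stands behind each value, so the count is a description.

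**Figure D2:**
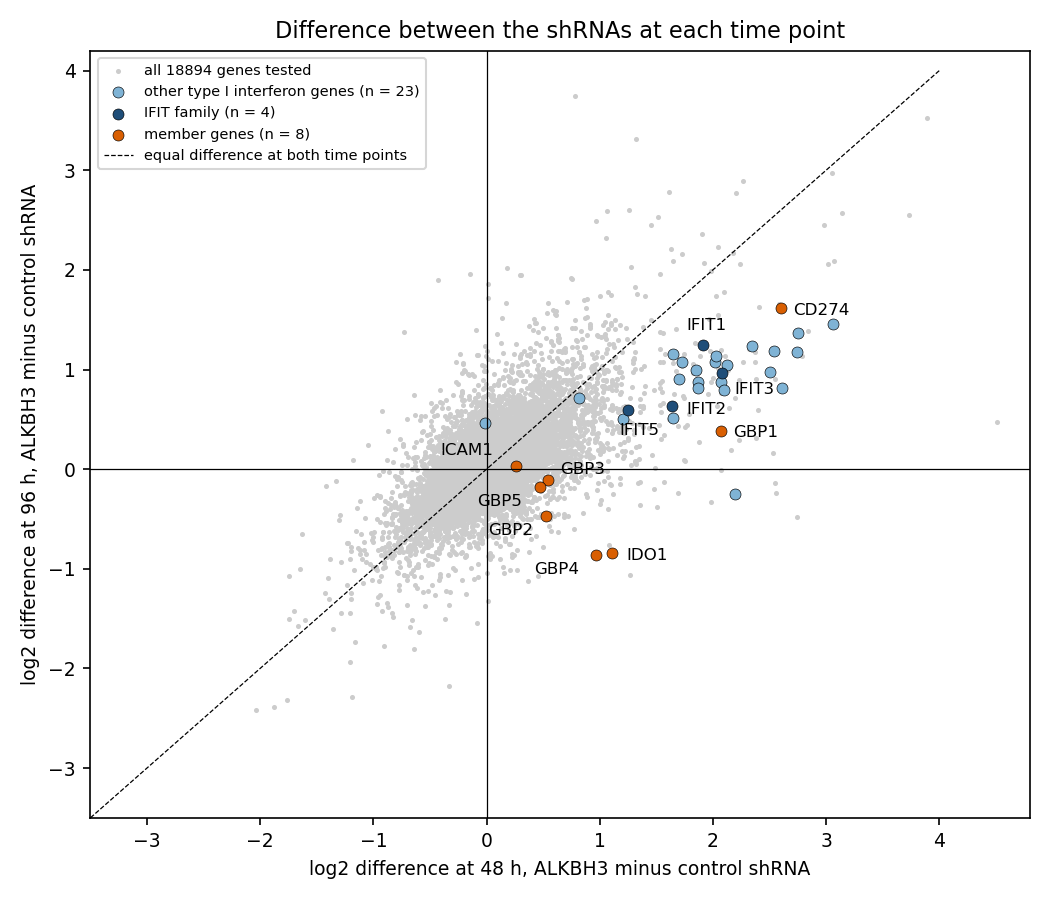
Log2 difference between ALKBH3 and control shRNA at 48 h (horizontal) and at 96 h (vertical), each from 1 array against 1 array, for all 18894 genes tested (grey), the 8 genes considered here, 4 IFIT genes and 23 other type I interferon genes. GBP2 to GBP5 and IDO1 lie to the right of 0 and below it, whereas the IFIT genes and CD274 lie above 0 on both axes.

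ICAM1, the ligand of leukocyte integrins, lies on chromosome 19 (10271120 to 10286615 in GRCh38.p14) and was printed in 10 spots. It had intensities of 2053 (control shRNA) and 2619 (ALKBH3 shRNA) at 48 h and of 2007 and 2095 at 96 h. The arrays with ALKBH3 shRNA lay above the control of the same time point by little, with log2 differences of 0.26 and 0.03, and the groups overlapped after centring. The mean difference of 0.15 on the log2 scale (standard error 0.18, adjusted p = 0.938 in limma) did not pass the test, and it is the gene of the 8 that moved least at 48 h.

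CIITA, the coactivator that switches on MHC class II genes, could not be compared over the shRNAs. Its probes lie in a gene on chromosome 16 (10866206 to 10943021 in GRCh38.p14). One probe had intensities of 4.74 and 5.29 at 48 h and of 9.38 and 36.0 at 96 h, control shRNA first, and was well above background only on the 96 h array with ALKBH3 shRNA. There it was at least 1.37-fold higher than with control shRNA. The other probe, with 10.5, 18.6, 9.43 and 17.0 in that order, was not well above background on any array. The genes that CIITA acts on, and the RFX factors that recruit it to their promoters, were measured in part. Of 14 MHC class II and RFX genes 10 were tested, 0 were called, and their median log2 fold change was 0.13, with the highest values for HLA-DMB (0.66) and HLA-DMA (0.37) and the lowest for the RFX factor RFXANK (-0.25). HLA-DMB was not well above background on the 96 h control array, where the difference was at least 1.28-fold.

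The IFIT genes, whose products bind foreign RNA, had larger median log2 differences than the interferon gamma targets at both time points. IFIT1 had intensities of 26872 and 108227 at 48 h and of 17511 and 42364 at 96 h, control shRNA first. Its log2 difference was 1.92 at 48 h and 1.25 at 96 h, and its log2 fold change was 1.58 (standard error 0.54, limma adjusted p = 0.608). IFIT1 and IFIT3 were called, out of 4 genes tested, and IFIT2 and IFIT5 were not, where 0.932% of all genes were called higher. IFIT2 was called with time point as a replicate block, under normexp and with the authors' values, and IFIT5 at the 1.5-fold cutoff. IFIT1 and IFIT3 were not called without a filter on dim probes or with the methods' t-test. Over all alternatives the log2 fold change ranged from 0.87 to 2.29 for IFIT1 and from 0.40 to 1.87 for IFIT2. It ranged from 0.73 to 2.32 for IFIT3 and from 0.50 to 1.34 for IFIT5. In each gene it was lowest without the 48 h array with ALKBH3 shRNA and highest without the 96 h array with ALKBH3 shRNA. The log2 differences at 48 h and 96 h were 2.08 and 0.96 for IFIT3, 1.64 and 0.64 for IFIT2 and 1.25 and 0.59 for IFIT5, so that all 4 were higher at both time points. The fifth gene, IFIT1B, was not tested. The median of the IFIT genes was 1.78 at 48 h (3.43-fold) and 0.80 at 96 h (1.74-fold), and that of the 8 interferon gamma targets was 0.76 (1.69-fold) and -0.14 (0.906-fold).

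The genes were not separated by list alone. CD274 and GBP1 had log2 differences at 48 h of 2.60 and 2.07, in the range of the IFIT genes or above it. At 96 h GBP1 fell below that range, whereas CD274 stayed above it. The place of CD274 depended on the processing. Over 10 ways of processing the arrays its lowest values were 1.18 at 48 h and 0.66 at 96 h. The lowest values over 11 ways were 1.88 and 1.24 for IFIT1 and 1.19 and 0.59 for IFIT5. The median over 23 other type I interferon genes tested was 2.03 at 48 h and 0.97 at 96 h, with 21 higher at both time points and 12 called. Over all 18894 genes tested 6478 were higher at both time points and 0.932% were called higher. Among the 23 other type I interferon genes the highest fold changes were those of RSAD2 (2.26) and MX2 (2.06) and the lowest that of DHX58 (0.22). The difference between the lists was not tested, since the lists had been chosen with results of these arrays known.

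**Figure D3:**
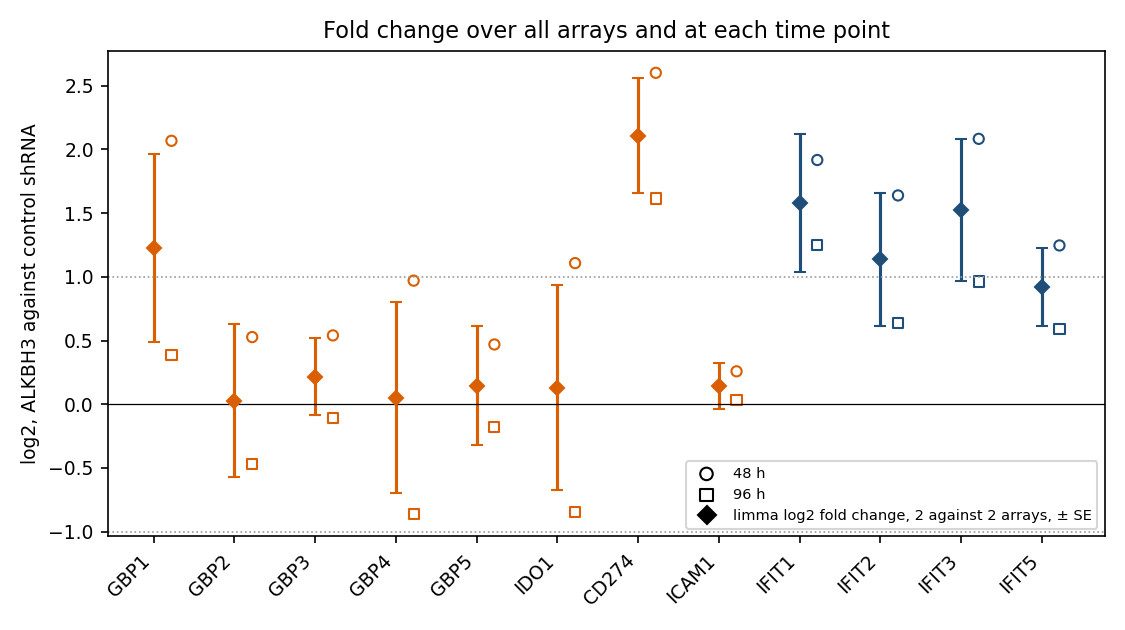
Log2 fold change of ALKBH3 against control shRNA for each of the 8 genes and 4 IFIT genes, over the 4 arrays (bars: standard error of the limma fit, 2 arrays against 2) and at each time point (1 array against 1). The IFIT genes lie between 0.92 and 1.58, and GBP2, GBP4 and IDO1 lie near 0 with standard errors of between 0.60 and 0.80.

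The change with time was larger with ALKBH3 shRNA. From 48 h to 96 h the log2 signal of the 8 genes changed by a median of -0.40 with control shRNA and of -1.48 with ALKBH3 shRNA. In the same order the change was -0.42 and -2.37 for IDO1, -0.38 and -2.21 for GBP4, and -0.48 and -2.17 for GBP1. In all 8 genes the signal was lower at 96 h with both shRNAs, and the difference between time points with ALKBH3 shRNA was the larger. The IFIT genes changed in the same way, by a median of -0.47 with control shRNA and of -1.45 with ALKBH3 shRNA, beside -0.01 and 0.02 over all genes tested. Time point and slide cannot be told apart in these changes.

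**Figure D4:**
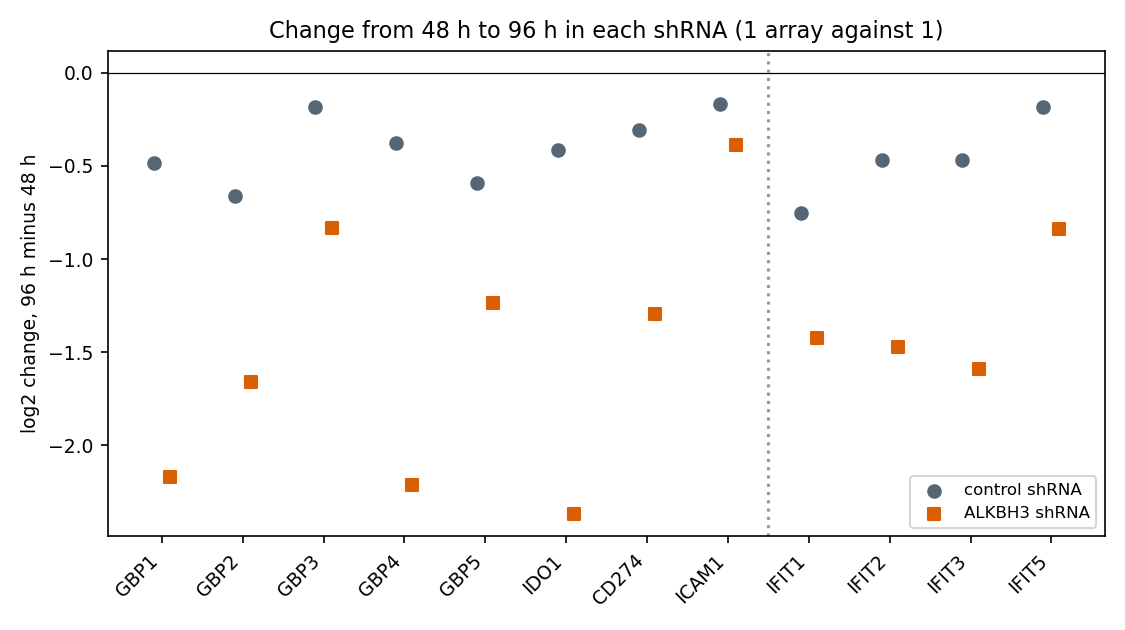
Change of the log2 signal from 48 h to 96 h of selection in each of the 8 genes and 4 IFIT genes, with control shRNA and with ALKBH3 shRNA (1 array at each time point, no error bars). The change was negative for all 8 genes with both shRNAs and larger with ALKBH3 shRNA, down to -2.37 for IDO1.

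The pathway that leads from interferon gamma to these genes was followed from a list of 14 genes, of which 12 were tested and 0 were called. The ligand IFNG was not well above background on any array, with intensities of 11.5, 13.1, 17.5 and 17.8, control and ALKBH3 shRNA at 48 h before those at 96 h. The receptor chains were nearly level, with log2 differences at 48 h and 96 h of 0.20 and 0.18 for IFNGR1 and of 0.03 and -0.09 for IFNGR2. The same held for the kinases JAK1 (-0.01 and -0.03) and JAK2 (0.17 and -0.09).

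IRF1, a transcription factor that interferon gamma induces, had intensities of 613 and 1049 at 48 h and of 518 and 377 at 96 h, control shRNA first. Its log2 differences of 0.68 and -0.48 had opposite signs, as those of IDO1 and GBP4 did.

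Among factors of the response to type I interferon, STAT2 had log2 differences of 0.71 and 0.11 and IRF9 of 0.36 and 0.38. The feedback inhibitor SOCS1 had 0.85 and 0.22, and SOCS3 had 0.27 and 0.44. The phosphatase PTPN2 had -0.35 and -0.08, and PIAS1, an inhibitor of cytokine signalling, had 0.06 and 0.08. IRF8 was not tested.

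Genes whose pattern over the 4 arrays was nearest to that of IDO1 and GBP1, the genes well above background on all 4 arrays that differed at least 2-fold at a time point, were sought among 14020 named genes by the Euclidean distance of log2 values centred per gene. For IDO1 these were GBP4 (distance 0.14), GBP2 (0.54) and IRF1 (0.59). For GBP1 they were BATF2 (0.18), TNFSF10, the death ligand TRAIL (0.23), and RTP4 (0.26). A distance over 4 arrays is a description of likeness in these libraries.

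Of 21 further targets of interferon gamma 15 were tested, 0 were called, and the median log2 difference was 0.94 at 48 h and -0.01 at 96 h. In 8 of the 15 the sign differed between time points, beside 5968 of all 18894 genes tested. The highest fold changes were those of the chemokines CXCL10 (2.11, with log2 differences of 2.84 and 1.39) and CXCL11 (1.36, with 1.96 and 0.76), and the lowest that of the complement inhibitor SERPING1 (-0.03). CXCL10 was not well above background on either array with control shRNA, so it was at least 3.11-fold higher over both time points. CXCL11 was not well above background on the 96 h control array, and at 96 h it was at least 1.66-fold higher.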

How the data were processed

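The authors deposited the spot intensities of every array, made by Agilent Feature Extraction (version 10.7.3.1 per the file headers) by subtracting background on that array alone; they also deposited a table of log2 values normalized between arrays, used as an alternative. Intensities were converted to log2, spots marked as poor (180 to 379 on an array) were removed, arrays were centred on the 75th percentile (2134 to 2385) and spots of a probe averaged. Between 67.0% and 70.9% of probes were well above background on an array. Accessions named 24910 of 34127 probes; the others kept the file's own name. Where a gene had several tested probes, the brightest on average stood for it. Groups were compared with limma 3.58.1 (lmFit and eBayes, R 4.3.3, package data.table, version 1.17.8), 2 arrays against 2 without a covariate, with Benjamini-Hochberg adjustment over all 18894 genes. Time point pairs the shRNAs through the shared slide, and deviations of arrays of one time point had a correlation of 0.67. The steps were tested on simulated data. The members and lists were chosen with earlier results of these data known. The text names all members, the IFIT family, the target, the pathway list, of every other list described the highest 2 genes and the lowest, and the nearest genes, apart from genes that are not reported here. Alternatives were other background corrections, normalizations and filters, other uses of probes and names, a 1.5-fold cutoff, the methods' t-test, time point as a replicate block, and leaving out each array.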

Additional observations from a re-analysis of the deposited data

Results flagged for a closer look

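In 5 of the 8 tested genes the ALKBH3 shRNA array was above the control at 48 h and below it at 96 h. The log2 difference at 48 h exceeded that at 96 h by 1.95 for IDO1, 1.83 for GBP4, 0.996 for GBP2, 0.646 for GBP3 and 0.646 for GBP5. Among the pathway genes the same order of signs gave 1.17 for IRF1, 0.263 for JAK2 and 0.121 for IFNGR2, of which the values of JAK2 and IFNGR2 come from differences near the median absolute difference of all genes at a time point, 0.15, or below it. The difference between time points was not tested, since 1 array stands behind each shRNA and time point, and opposite signs were found in 5968 of 18894 genes.

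A CIITA probe that entered no test was well above background on 1 array, that of ALKBH3 shRNA at 96 h, with an intensity of 36.0, beside 9.38 with control shRNA at 96 h.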

How the results depend on the processing

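With 1 array for each shRNA and time point, precision is limited by the number of arrays, and probes near background (CD274, CIITA, GBP5) by their signal. CD274 was not called under normexp, where its log2 fold change was 0.92, nor with the methods' t-test. It was not tested with a filter on all 4 arrays, and it was called under the other alternatives that kept every array. With an array left out its log2 fold change lay between 1.46 and 2.76. Members called higher numbered 1. The count was 0 with normexp, 0 with the filter on all 4 arrays and 0 with the methods' t-test. It was 2 with probes in place of genes (both of CD274) and 2 with the replicate block (CD274 and GBP1). No count is given with an array left out, since 1 shRNA then rests on a single array.

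Leaving out the 48 h array with ALKBH3 shRNA turned GBP2 to -0.80, GBP3 to -0.20, GBP4 to -1.05, GBP5 to -0.47, ICAM1 to -0.049 and IDO1 to -1.05, and GBP1 was 0.14. That fit holds a lone ALKBH3 shRNA array, which is assumed to vary like the controls, so only fold changes are given for it. CIITA was tested there only because that array was the one with signal well above background. Leaving out the 96 h control array turned GBP2 to -0.30, GBP4 to -0.14, GBP5 to -0.15 and IDO1 to -0.077. Without the 96 h array with ALKBH3 shRNA the values were 0.86 for GBP2, 0.63 for GBP3, 1.16 for GBP4, 0.76 for GBP5, 0.34 for ICAM1 and 1.32 for IDO1, the highest with an array left out. The median of the members lay between -0.20 and 1.01 with an array left out, and that of the IFIT genes between 0.61 and 1.99. No array can be left out of a value at 1 time point. Over 11 ways of processing the arrays, that of the report included, GBP2, GBP4, GBP5 and IDO1 were lower at 96 h in 11 and GBP3 in 10, and these 5 were higher at 48 h in 11. The number of members higher at 48 h and lower at 96 h, a count added after the data were seen, was 5, and 6 with the authors' values (ICAM1 included).

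Over all genes, 176 were called higher and 42 lower. The counts were 67 and 25 with normexp, 414 and 85 without a filter, 52 and 19 with the methods' t-test, 502 and 258 at 1.5-fold, and 199 to 443 and 42 to 111 with an array left out; 101 were higher with the authors' values and 111 with the filter on all 4 arrays. With the replicate block 239 genes were higher and 118 lower at a limma adjusted p of 0.05. The causes were not tested.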

Other observations

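In the kynurenine pathway, of which IDO1 catalyses the first step, 6 of 9 genes were tested. Of these 1 was called higher, beside 0.932% of all genes tested. When the time points were a replicate block 2, KMO and QPRT, passed the adjusted p of limma, beside 1.26% of all genes. KMO, which hydroxylates kynurenine, had log2 differences of 1.56 at 48 h and 1.08 at 96 h with a mean of 1.32 (adjusted p with the replicate block 0.0437 in limma). A second KMO probe, also well above background on all 4 arrays, had 0.79 and 0.35 and a mean of 0.57, below the 2-fold cutoff. QPRT, which leads the pathway on to NAD, had 0.95 and 1.12 with a mean of 1.04 (adjusted p with the replicate block 0.0401 in limma), and the lowest fold change was that of KYAT1 (-0.31). KMO and QPRT were higher at both time points, unlike IDO1.

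ICAM1 is known to respond to NF-kB as well as to interferon gamma. Of 14 other NF-kB targets tested 0 were called, although under the replicate block 4 passed the adjusted p of limma (CXCL8, BIRC3, CXCL1 and IL6) beside 1.26% of all genes, and the median log2 difference was 0.49 at 48 h and 0.50 at 96 h. The highest fold changes were those of CXCL8 (1.002) and BIRC3 (0.84) and the lowest that of NFKB1 (-0.13). In the list of ICAM relatives, their ligands and the PD-1 axis 6 genes were tested and 0 were called, with the highest fold changes for ITGB2 (0.53) and ICAM2 (0.38) and the lowest for ICAM5 (-0.27).

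Among interferon ligands, IFNL1 (0.85) and IFNL2 (0.70) had the highest fold changes of 4 genes tested and IFNE the lowest (-0.08). The log2 differences at 48 h and 96 h were 1.09 and 0.60 for IFNL1, and 1.31 and 0.08 for IFNL2. IFNL1 was not well above background on the 96 h control array and was at least 1.52-fold higher at 96 h. IFNB1 was well above background only with ALKBH3 shRNA at 48 h, where its intensity was 52.4 beside 10.9 with control shRNA and it was at least 2.64-fold higher. At 96 h its intensities were 12.8 with control shRNA and 18.8 with ALKBH3 shRNA.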
